A study of Mus musculus with 8 samples.

Results

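Translation initiation and elongation factors are the proteins that bring ribosome, initiator tRNA and mRNA together at the start codon and then move the ribosome along the message. The genes described here are those whose symbol begins with Eif or Eef followed by a digit, without the 4 Eif2ak kinase genes and without pseudogenes (0 matched), which gives 66 of the 30406 genes listed for both replicates. They were divided by role into 10 groups: 5 genes of start codon selection, 6 of eIF2 and its delivery, 5 of the exchange factor eIF2B, 14 of eIF3, 12 of eIF4F and its helpers, 4 eIF4E-binding proteins, 4 of subunit joining with eIF5A, 6 of eEF1, *Eef2* alone, and 9 enzymes and other genes that carry a factor's name. *Eif2c5*, in the last group, had 1 UMI in 1 library of β-cells and *Eif4e1b* had none in β-cells, and these genes were not tested there.

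In the usual route of initiation, eIF2 carries the initiator tRNA with GTP to the small ribosomal subunit, eIF3 holds that subunit in the complex, and eIF4F binds the mRNA cap and unwinds the leader. eIF1, eIF1A and eIF5 govern the choice of the start codon, eIF2B reloads eIF2 with GTP, and eIF5B joins the large subunit, after which eEF1A delivers each aminoacyl-tRNA and eEF2 moves the ribosome on by a codon. The route is controlled mainly through phosphorylation of eIF2α and through eIF4E-binding proteins, which sequester the cap-binding protein, and β-cells are known for a heavy load of this work because they make insulin.

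Islets of male C57BL/6 mice (C57BL6/J in the study's methods) were cultured for 18 h untreated, with IL-1β (10 U/mL) and IFN-γ (150 U/mL), with the same cytokines and 2 mM NMMA, or with NMMA alone. NMMA is a methylated arginine that inhibits nitric oxide synthases. For each of 2 replicates, islets from 10 mice were pooled and shared out among the 4 conditions, so that each condition of a replicate gave 1 single-cell library, in which a UMI (unique molecular identifier) marks a captured RNA molecule near its 3′ end. With 2 libraries a condition, p-values measure the spread between these pools, and an exact permutation test of 2 against 2 libraries cannot go below p = 0.333.

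The 8 libraries held 26549922 to 50731370 UMIs, 10876 of 17426 barcodes were kept, and no pair of libraries shared more than 2 barcodes. Clusters were named from markers as β-, α- or δ-cell-like, macrophage-like or endothelial-like and are called by those cell types here. *Lepr*, listed as a δ-cell marker, was at 0 in the median library of δ-cells, and *Ppy* and *Pyy*, markers of PP-cells, were abundant in α- and δ-cells. Per 1000000 UMIs, PP-cell markers summed to 97656 and 125228 in untreated δ-cells (replicates 1 and 2). δ-cell markers there summed to 78294 and 58200. PP-cell markers also summed higher with cytokines and NMMA, and in replicate 2 of NMMA alone. They summed lower in replicate 1 of NMMA alone (95721 against 96050) and replicate 2 of cytokines (27187 against 29071). The part of PP-cells in the δ-cell values was not tested. Markers of mesenchymal cells were present in endothelial cells and are given with their values. A library held 450 to 1664 β-cells, 47 to 97 α-cells, 28 to 72 macrophages and 14 to 52 endothelial cells. The cytokine library of replicate 1 held 7 δ-cells and was left out, so that every δ-cell value for cytokines rests on 12 cells of replicate 2.

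In β-cells a larger part of all UMIs came from these genes after 18 h of cytokines. The 66 genes together held 0.954 and 0.893% of the UMIs of untreated β-cells (replicates 1 and 2), 1.36 and 1.16% with cytokines, 1.10 and 0.969% with cytokines and NMMA, and 0.869 and 0.890% with NMMA alone. The cytokine libraries lie above all others. Hormone transcripts fill a large part of β-cell libraries, and without them the share was 1.82 and 1.61% untreated and 2.25 and 1.98% with cytokines, while cytokines with NMMA gave 1.79 and 1.59%. Of 64 genes tested with edgeR (quasi-likelihood, adjusted p below 0.05 over all genes tested), 32 rose and 6 fell with cytokines, where 23.7% of all 12779 genes tested rose and 22.4% fell. The median log2 change was 0.54 over the 64 genes and 0.0018 over all genes. With the replicate as a block, 43 rose and 8 fell, where 32.2% of all genes rose and 30.7% fell. The conditions lay largely in different clusters of the class, with 1053 and 413 of the cytokine β-cells in clusters that each held 1 untreated β-cell, and 1548 and 479 of the untreated ones in clusters with 4 and 6 cytokine β-cells.

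**Figure D1:**
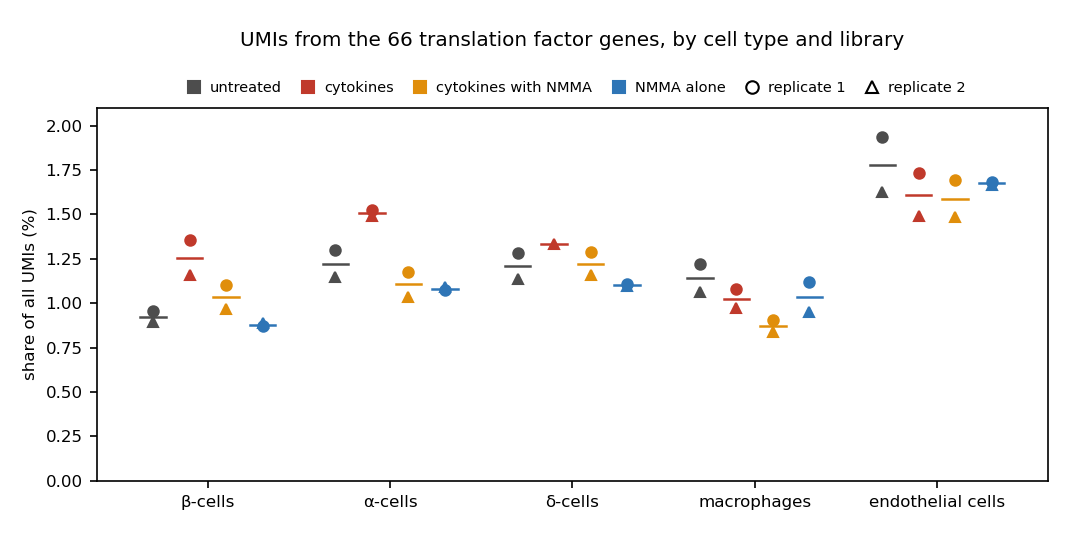
Share of all UMIs of a cell type that came from the 66 translation factor genes (y axis, %), with a point for each library, colour for the condition, marker shape for the replicate and a short line at the mean. The cytokine libraries of β-cells (1.36 and 1.16%) and of α-cells (1.53 and 1.49%) lie above the other conditions of their cell type, while those of macrophages (1.08 and 0.970%) overlap the untreated ones (1.22 and 1.06%).

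These changes are relative to the scale. TMM scaling, used throughout, sets the typical gene at no change, and scaling by total UMIs would move the median of all genes with cytokines by -0.22 on the log2 scale in β-cells and by -0.49 in α-cells. On total UMIs 23 of the β-cell genes rose and 7 fell (15.5% and 30.8% of all genes), and when hormone genes were left out of the totals 18 rose and 7 fell (12.8% and 38.8% of all genes). A level below is the number of TMM-scaled UMIs per 1000000 UMIs of the cell type in a library, a change is a log2 difference of such levels with its SE, and adjusted p-values are those of edgeR's quasi-likelihood test. Values in pairs are those of replicates 1 and 2.

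**Figure D2:**
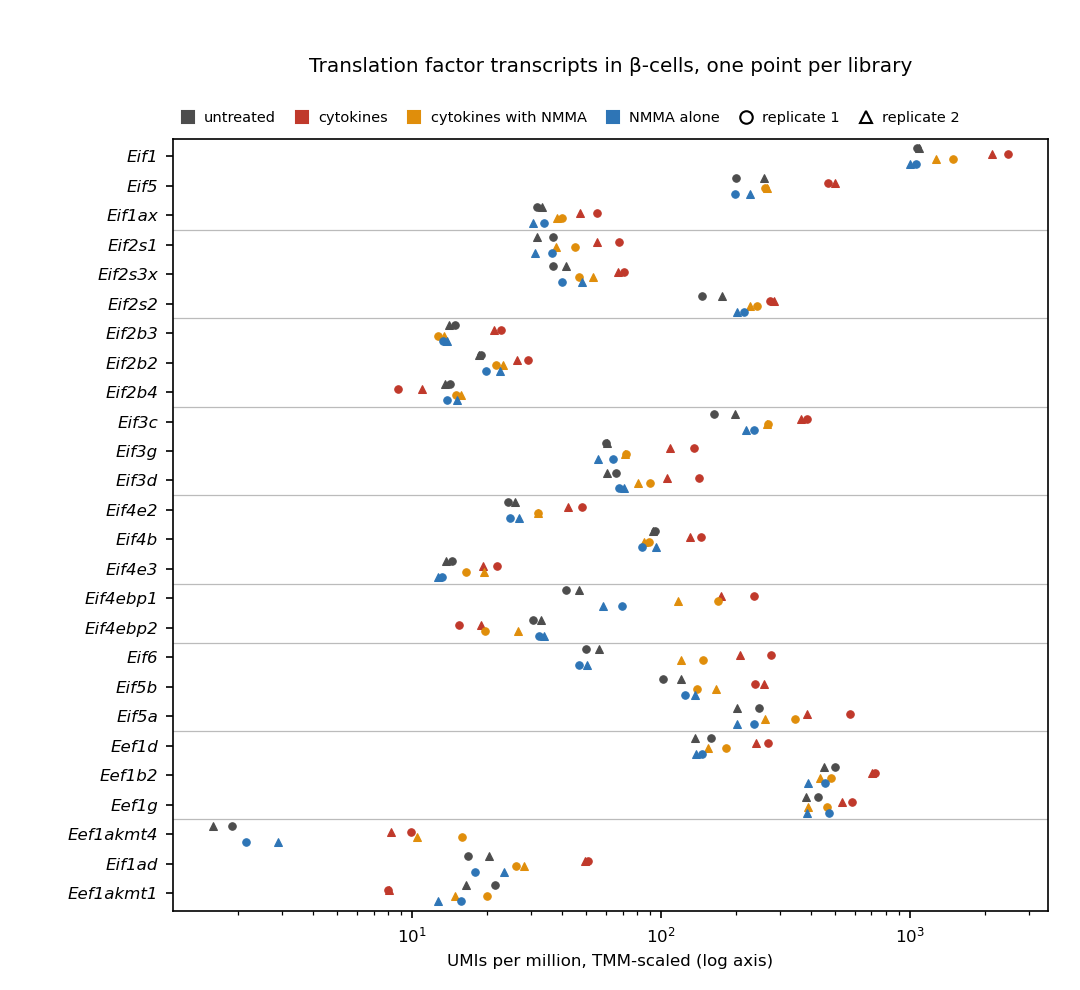
Levels in β-cells (x axis, TMM-scaled UMIs per 1000000 on a log axis) of the up to 3 genes per group that were called with cytokines against untreated and changed most, with a point for each of the 8 libraries, colour for the condition and marker shape for the replicate. Cytokine libraries stand to the right of untreated ones for *Eif6* (276 and 207 against 50.1 and 56.4) and *Eif4ebp1*, and to the left for *Eef1akmt1* and *Eif4ebp2*.

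The 4 genes of subunit joining and eIF5A had the highest median change of the groups, 1.13, with 3 raised and 1 not called. *Eif6* (chr2:155819832-155826925, minus strand, GRCm38), whose product binds the large subunit and keeps it from joining too early, had levels of 50.1 and 56.4 untreated, 276 and 207 with cytokines, 147 and 120.3 with cytokines and NMMA, and 46.9 and 50.2 with NMMA alone. The conditions do not overlap except untreated and NMMA alone, and the change with cytokines was 2.18 ± 0.18 (adjusted p = 3.39e-05). *Eif5b*, which joins the subunits, rose from 102 and 121 to 239 and 259 (1.16 ± 0.15, adjusted p = 3.85e-04). *Eif5a*, the hypusine-bearing factor that eases stalled peptide bonds, rose from 247 and 202 to 572 and 384 (1.09 ± 0.22, adjusted p = 0.0041), and all cytokine libraries exceeded all untreated ones for both. Its paralog *Eif5a2* was sparse, at 3.72 and 4.49 untreated and 4.33 and 4.37 with cytokines (0.09 ± 0.24, adjusted p = 0.784).

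Of the start codon genes 4 of 5 rose (median 0.66). *Eif1*, which guards against initiation at wrong codons, went from 1070.3 and 1089.8 untreated to 2472 and 2139 with cytokines (1.09 ± 0.14, adjusted p = 3.66e-04), and its near paralog *Eif1b* from 99.7 and 91.5 to 111 and 103 (0.17 ± 0.13, adjusted p = 0.335). *Eif1* therefore differed by more than the spread between replicates, and *Eif1b* did not pass the test. *Eif5*, the GTPase-activating protein of eIF2, rose from 200.2 and 259 to 469 and 498 (1.07 ± 0.16, adjusted p = 7.75e-04). The autosomal and X-linked eIF1A genes both rose by smaller amounts: *Eif1ax* from 31.7 and 33.3 to 55.1 and 47.3 (0.66 ± 0.13), and *Eif1a* from 32.2 and 42.98 to 49.97 and 64.4 (0.61 ± 0.18). The call of *Eif1a* was lost without untreated replicate 1 and without cytokines replicate 2. That of *Eif1ax* was lost in 1 of 17 alternative fits, which was not a fit without a library.

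All 3 subunits of eIF2 rose. Over the 6 genes of eIF2 and its delivery 4 rose, and all 6 did with the replicate as a block. *Eif2s1*, which encodes the α subunit that stress kinases phosphorylate, had levels of 36.6 and 31.6 untreated and 67.9 and 55.1 with cytokines (0.85 ± 0.16, adjusted p = 0.00246). The β subunit gene *Eif2s2* rose from 146 and 176 to 275 and 285 (0.80 ± 0.14, adjusted p = 0.00186), and the X-linked γ subunit gene *Eif2s3x* from 36.9 and 41.4 to 71.2 and 66.8 (0.82 ± 0.14, adjusted p = 0.0016). Untreated and cytokine libraries did not overlap for these 3 genes. The Y-linked copy *Eif2s3y* was at 46.9 and 36.1 untreated and 67.9 and 48.7 with cytokines (0.49 ± 0.24), with an adjusted p of 0.129 without and 2.25e-04 with the replicate as a block. In eIF2B, which recharges eIF2, 2 of 5 genes rose and 1 fell. *Eif2b3* rose by 0.61 ± 0.13 and *Eif2b2* by 0.57 ± 0.13, while *Eif2b4* went from 14.2 and 13.6 to 8.74 and 10.96 (-0.50 ± 0.15, adjusted p = 0.0249), a call lost without either untreated library or cytokines replicate 1. The calls of *Eif2b3* and *Eif2b2* were lost in 1 and 2 of 17 alternative fits, none of them a fit without a library.

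eIF3, the largest initiation factor, had 9 of 14 genes raised, none lowered and a median change of 0.76, and 13 were called with the replicate as a block. Its subunit genes *Eif3c* (163 and 198 to 385 and 365, 1.05 ± 0.14, adjusted p = 4.80e-04), *Eif3g* (59.8 and 60.9 to 136 and 109, 1.02 ± 0.14, adjusted p = 5.62e-04) and *Eif3d* (65.8 and 60.6 to 142 and 106, 0.97 ± 0.16, adjusted p = 0.00125) rose most among those called. The loosely bound subunit eIF3j has a pair of near-identical genes between which reads may be divided, so their values are uncertain. *Eif3j1* was at 19.4 and 38.0 untreated and 41.4 and 65.8 with cytokines, so that replicate 2 was higher in both conditions, and its change of 0.91 ± 0.42 had an adjusted p of 0.123 without and 9.35e-07 with the replicate as a block. *Eif3j2* had levels between 0.417 and 1.55 (1.13 ± 0.45, adjusted p = 0.0696, and 0.0134 with the block).

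**Figure D3:**
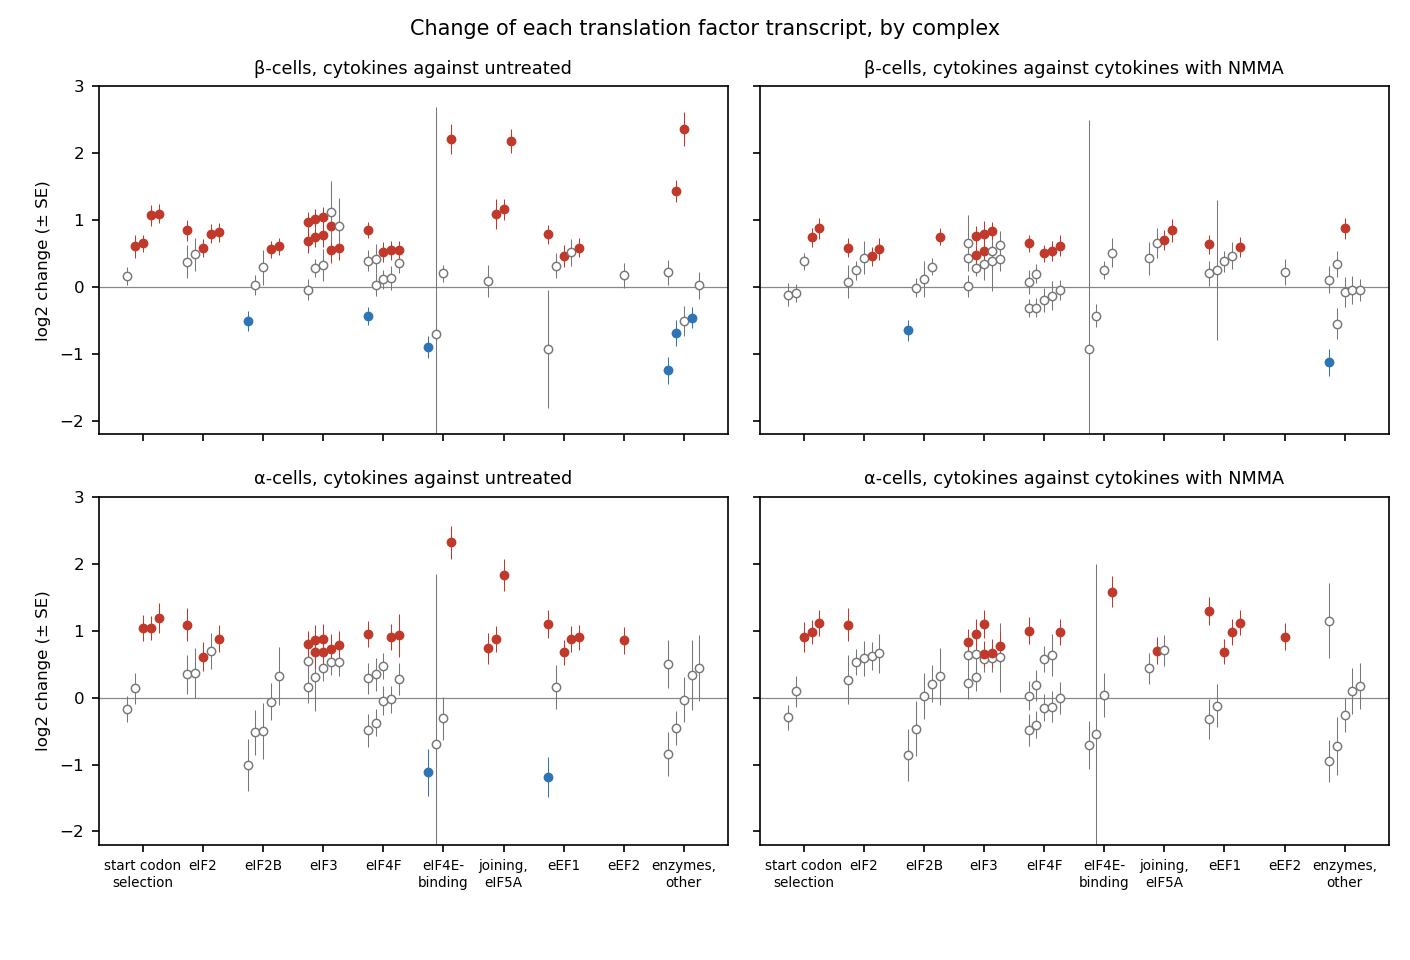
Log2 change of each tested gene with its SE (y axis), arranged by factor group along the x axis, in β-cells (top) and α-cells (bottom), for cytokines against untreated (left) and cytokines against cytokines with NMMA (right). Red points were higher, blue points lower and open points not called. In β-cells 9 of the 14 eIF3 genes were higher with cytokines than untreated and 5 were higher than with cytokines and NMMA.

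eIF4F was divided. Of 11 genes tested 4 rose (*Eif4e2*, *Eif4e3*, *Eif4g2* and *Eif4b*), 1 fell (*Eif4g1*) and 6 were not called (median 0.39). The canonical *Eif4e* and the helicase genes *Eif4a1* and *Eif4a2* were among those not called. With the replicate as a block 7 of the group were higher and 1 lower. Among the cap-binding proteins, *Eif4e2* rose from 24.2 and 25.9 to 48.2 and 42.4 (0.86 ± 0.12, adjusted p = 6.36e-04) and *Eif4e3* from 14.4 and 13.6 to 22.0 and 19.2 (0.55 ± 0.14, adjusted p = 0.0117), while the canonical *Eif4e* was at 64.8 and 61.3 untreated and 77.8 and 60.8 with cytokines (0.14 ± 0.17, adjusted p = 0.551). The scaffold genes went different ways. *Eif4g1*, the canonical scaffold, fell from 112 and 119 to 82.5 and 88.3 (-0.43 ± 0.13, adjusted p = 0.0246), a call lost when any of the 4 libraries compared was left out. *Eif4g2*, a scaffold homolog without the cap-binding protein's site, rose from 229 and 283 to 366 and 374 (0.53 ± 0.15, adjusted p = 0.0176), and *Eif4g3* had a change of 0.12 ± 0.14. The call of *Eif4g2* was lost without untreated replicate 1 and without either cytokine library, and that of *Eif4e3* without either untreated library and without cytokines replicate 1.

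The RNA helicase eIF4A has a pair of similar genes. *Eif4a1* was at 203 and 172 untreated, 298 and 205 with cytokines and 319 and 231 with cytokines and NMMA, whereas *Eif4a2* was at 315 and 293, 438 and 361, and 276 and 244. *Eif4a2* was thus highest with cytokines alone, and *Eif4a1* highest with cytokines and NMMA in both replicates. Between cytokines with and without NMMA, *Eif4a2* was called without the replicate block and *Eif4a1* was not. Against untreated, neither was called without the replicate block (*Eif4a1* 0.42 ± 0.22, adjusted p = 0.14, *Eif4a2* 0.39 ± 0.16, adjusted p = 0.0642) and both were called with it (adjusted p = 0.00183 and 7.83e-04). The helicase cofactor *Eif4b* rose by 0.56 ± 0.13 (adjusted p = 0.00679). Its call was lost in 2 of 17 alternative fits, none of them a fit without a library, and its lowest change was 0.20.

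Genes of eIF4E-binding proteins moved apart, with 1 raised, 1 lowered and 2 not called (1 raised and 2 lowered with the replicate as a block). *Eif4ebp1* (chr8:27260329-27276674, plus strand) had levels of 41.6 and 46.7 untreated, 235 and 174 with cytokines, 169.7 and 116 with cytokines and NMMA, and 69.4 and 58.4 with NMMA alone, a rise with cytokines of 2.21 ± 0.22 (adjusted p = 1.00e-04). *Eif4ebp2* (chr10:61428491-61452661, minus strand) had 30.5 and 33.0 untreated and 15.4 and 18.8 with cytokines, a fall of 0.90 (SE 0.17, adjusted p = 0.00266). The untreated and cytokine libraries overlap for neither gene, and both products bind eIF4E when they are not phosphorylated. *Eif4ebp3* had 0 UMIs in 3 of the β-cell libraries of replicate 1 and a level of 0.0531 in the other, against 8.14 to 14.9 in replicate 2. The gene lists and software versions of the replicates differ in the same way, and their part in this value was not tested.

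Of the 6 eEF1 genes 3 rose and 3 were not called (median 0.49), and *Eef2* was not called. With the replicate as a block 5 of the eEF1 genes rose, and *Eef2* was again not called. *Eef1d* and *Eef1b2*, which exchange the nucleotide of eEF1A, rose from 159 and 137 to 268 and 242 (0.79 ± 0.15, adjusted p = 0.00248) and from 498 and 450.0 to 722 and 705 (0.59 ± 0.14, adjusted p = 0.00831). *Eef1g*, a structural subunit of the same exchange complex, rose by 0.47 ± 0.16 (adjusted p = 0.0376), a call lost when any of the 4 libraries compared was left out, and that of *Eef1b2* was lost without untreated replicate 2. *Eef1a1*, the tRNA carrier itself, was at 2495 and 1864 untreated and 3544 and 2716 with cytokines (0.52 ± 0.20), with an adjusted p of 0.0589 without and 2.26e-05 with the replicate as a block. Its muscle- and neuron-type paralog *Eef1a2* was at most 0.849 in any β-cell library. *Eef2*, the translocase, was at 665 and 507 untreated and 745 and 582 with cytokines, so the conditions overlap (0.18 ± 0.19, adjusted p = 0.47).

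Of 8 enzymes and other factor-named genes tested, 2 rose and 3 fell (2 and 4 with the replicate as a block). *Eef1akmt4* (chr16:20611593-20619011, plus strand), a lysine methyltransferase of eEF1A, was at 1.89 and 1.58 untreated, 9.85 and 8.20 with cytokines, 15.8 and 10.5 with cytokines and NMMA, and 2.15 and 2.87 with NMMA alone. Its change with cytokines of 2.36 ± 0.26 (adjusted p = 1.55e-04) was the highest of the 64 genes. Another methyltransferase of eEF1A, *Eef1akmt1*, went the other way, from 21.4 and 16.4 untreated to 7.97 and 8.07 with cytokines (-1.24 ± 0.20, adjusted p = 0.00119), and was at 20.02 and 14.8 with cytokines and NMMA. *Eif1ad*, which carries an eIF1A-like domain, rose from 16.7 and 20.3 to 50.8 and 49.2 (1.44 ± 0.16, adjusted p = 1.69e-04). *Eef2k*, whose product halts eEF2 by phosphorylation, fell by 0.69 (SE 0.19, adjusted p = 0.0177) and the eEF2 methyltransferase gene *Eef2kmt* by 0.46 (SE 0.16, adjusted p = 0.0378). *Eef2k* shares 309 bases with the gene model *Gm45047*, so reads there could belong to either.

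The comparison of cytokines with cytokines and NMMA asks which changes differ when nitric oxide synthases are inhibited. In β-cells 20 of the 64 genes were higher with cytokines alone and 2 were lower, where 8.95% of all genes tested were higher and 10.3% lower. On total UMIs the split was 9 higher and 6 lower, where 3.11% and 18.4% of all genes were, and with the replicate as a block it was 34 and 7, where 20.3% of all genes were higher and 20.3% lower. The count fell when cytokines replicate 1 or either library of cytokines with NMMA was left out. The share of all genes called was not counted in these fits, nor in those without a library given below. A fall there cannot be read as particular to these genes. eIF3 gave 5 of the higher genes, eIF4F with its helpers 4 and eIF2 3. Start codon selection, subunit joining and eEF1 gave 2 each, and eIF2B and the enzymes 1 each. Both comparisons share the cytokine libraries, so their values are set side by side only.

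*Eif3e* had the smallest adjusted p in this comparison, at 172 and 153 with cytokines and 90.3 and 90.99 with NMMA added, against 84.7 and 88.5 untreated. That is a difference of 0.84 ± 0.13 (adjusted p = 0.0043), while the change against untreated with NMMA present was 0.07 ± 0.13 (adjusted p = 0.765). *Eif5* (469 and 498 against 261 and 266, 0.88 ± 0.16, adjusted p = 0.00834), *Eif2b3* (22.7 and 21.4 against 12.7 and 13.4, 0.75 ± 0.13, adjusted p = 0.00698), *Eif4b* (145 and 131 against 89.6 and 85.6, 0.65 ± 0.13, adjusted p = 0.0106) and *Eef1b2* (722 and 705 against 482 and 434, 0.64 ± 0.14, adjusted p = 0.0158) followed. With NMMA these 4 differed from untreated by -0.14 to 0.20 on the log2 scale, and none of them was called. For *Eif6* and *Eif1ad* the NMMA libraries stood between, at 147 and 120.3 and at 26.2 and 28.1. *Eif4a2* was 0.62 ± 0.16 higher without NMMA (adjusted p = 0.0256). The 2 lower genes were *Eef1akmt1* (-1.12 ± 0.20, adjusted p = 0.00812) and *Eif2b4* (-0.64 ± 0.16, adjusted p = 0.0227).

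A smaller set differed from untreated although NMMA was present. With cytokines and NMMA against untreated, 7 of the 64 genes were higher and 1 was lower (*Eef2k*, -0.80 ± 0.20, adjusted p = 0.0184), where 12.8% and 9.72% of all genes were. The block gave 23 higher and 5 lower, where 22% and 18.8% of all genes were. The count was 3 without untreated replicate 1 and 4 without either library of cytokines with NMMA. The highest changes were those of *Eef1akmt4* (2.91 ± 0.26, adjusted p = 7.70e-05), *Eif4ebp1* (1.70 ± 0.22, adjusted p = 6.20e-04) and *Eif6* (1.33 ± 0.18, adjusted p = 6.89e-04). *Eif1a* (0.72 ± 0.18), *Eif3c* (0.57 ± 0.14), *Eif1ad* (0.56 ± 0.16) and *Eif2s2* (0.55 ± 0.14) were the others. *Eif4ebp1*, *Eef1akmt4* and *Eif1a* did not pass the test between cytokines with and without NMMA (0.52 ± 0.21, -0.55 ± 0.23 and -0.11 ± 0.18), although *Eif4ebp1* and *Eef1akmt4* were called with the block (adjusted p = 0.0103 and 0.0148). With NMMA alone edgeR called 0 of the 64 genes and 0% of all genes in either direction, with 3 of the 64 at an unadjusted p below 0.05, 1 called higher with the block (1.57% of all genes higher and 1.96% lower) and 0 by DESeq2. Over all 12779 genes tested 932 were at an unadjusted p below 0.05, and DESeq2 called 9 genes in all.

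Promoter windows of RefSeq (GRCm38.p6, 250 bases before to 50 after a start) were held for 50 of the 66 genes, 64 windows in all, among them 22 of the 32 genes raised in β-cells but not *Eif6* or *Eif4ebp1*. The E-box CACGTG (a palindrome, so the same on both strands) was in 25% of the 64 windows and in 7.15% of 32851 windows of all genes, and the median GC content was 62.2 and 52.7%. Of the 14 genes with it in a window, 4 were raised in β-cells, 2 lowered and 8 not called. A pyrimidine run of at least 5 bases from a C at the start, as in terminal oligopyrimidine messages, was in 4.69 against 2.51% of windows. The 4.69% are 3 of 64 windows, those of *Eif2s3x*, *Eif3f* and *Eif2c5*, which is annotated as a long noncoding RNA. The match depends on the annotated start base. The motifs TGATGNAA (ATF4 and CHOP, 3.12 against 3.97%), TTCNNNGAA (STAT, 7.81 against 8.30%) and GAANNTTC (heat shock element, 6.25 against 7.86%), each searched on both strands, were no more frequent than over all windows. A match is a match of letters and says nothing of binding. The windows shown are those of the gene that rose most, of *Eif5a* and of *Eif4g1*, which fell, with the E-box in capitals, and the start sites of *Eif3f* and *Eif2s3x* with the pyrimidine run in capitals.
Eef1akmt4, chr16:20611497-20611526, plus strand: tgacggaagttcCACGTGtttgtgtggagc
Eif5a, chr11:69920791-69920820, minus strand: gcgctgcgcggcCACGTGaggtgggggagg
Eif4g1, chr16:20672661-20672690, plus strand: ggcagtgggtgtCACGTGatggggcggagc
Eif3f, chr7:108934405-108934434, plus strand: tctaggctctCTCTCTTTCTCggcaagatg
Eif2s3x, chrX:94212632-94212661, minus strand: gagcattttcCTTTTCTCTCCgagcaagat

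In α-cells 25 of 60 genes tested rose and 2 fell with cytokines, where 14.4% of all 9613 genes rose and 8.67% fell. The 66 genes together held 1.30 and 1.15% of α-cell UMIs untreated and 1.53 and 1.49% with cytokines. On total UMIs 6 genes rose and 10 fell (6.87% and 27.1% of all genes). Without hormone genes in the totals 7 rose and 9 fell (7.71% and 24% of all genes). Whether more of the called genes rose or fell thus depended on the scale here. The count was 14 without untreated replicate 2 and 16 without cytokines replicate 1. The share of insulin UMIs in α-cells was 0.779 and 0.573% untreated, 4.89 and 4.71% with cytokines, and 1.57 and 5.19% with cytokines and NMMA, against 34.3 and 37.3% in cytokine β-cells, and 99 of the cytokine α-cells lay in a cluster led by the heat shock genes *Hspb1* and *Hspa1a* that held 5 untreated ones, while 175 of those with cytokines and NMMA lay in a cluster with 2 untreated and 13 cytokine α-cells. The part of insulin UMIs and of these clusters in these values was not tested.

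Genes of α-cells called higher on both scales included *Eif4ebp1*, *Eif6*, *Eif1*, *Eif5* and *Eef1a1*. *Eif4ebp1* rose from 24.0 and 24.4 to 102 and 138 (2.32 ± 0.25, adjusted p = 2.73e-06, 1.83 on total UMIs). *Eif6* rose from 72.1 and 68.8 to 315 and 191 (1.83 ± 0.24, adjusted p = 2.70e-05, 1.30 on total UMIs). *Eif1* (1249 and 1108 to 2405 and 2460.5, 1.05 ± 0.18, adjusted p = 3.92e-04) and *Eif5* (1.04 ± 0.19, adjusted p = 7.00e-04) had changes of 0.54 and 0.54 on total UMIs. *Eef1a1* rose here from 2852 and 2140.1 to 6228 and 4454 (1.10 ± 0.21, adjusted p = 8.59e-04, 0.57 on total UMIs, with an adjusted p of 0.0518 for the difference from β-cells), and *Eef2* from 583 and 457 to 1057 and 829 (0.86 ± 0.20, adjusted p = 0.00467, 0.34 on total UMIs). eEF1 and eEF2 genes were thus among those raised, 4 of the eEF1 genes and *Eef2*. Beside them were 7 of eIF3 and 3 each of start codon selection, eIF2, eIF4F with its helpers and subunit joining.

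The 2 genes that fell in α-cells were *Eef1a2* and *Eif4ebp2*. *Eef1a2* (chr2:181147653-181157014, minus strand), nearly absent from β-cells, had levels of 115 and 97.5 in untreated α-cells, 68.9 and 29.6 with cytokines, 60.6 and 55.8 with cytokines and NMMA, and 89.2 and 75.6 with NMMA alone (-1.19 ± 0.30 with cytokines, adjusted p = 0.00808). *Eef1a1* and *Eef1a2*, which encode the same activity, therefore moved in opposite directions in these cells, and on total UMIs as well (0.57 and -1.71). *Eif4ebp2* fell from 25.5 and 38.5 to 11.5 and 17.02 (-1.12 ± 0.35, adjusted p = 0.0276), and its cytokine libraries lie below both untreated ones, as in β-cells. In the annotation *Eif4ebp2* shares 3816 bases with the intronic gene model *Gm48086*, and reads there could belong to either, here and in β-cells.

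**Figure D4:**
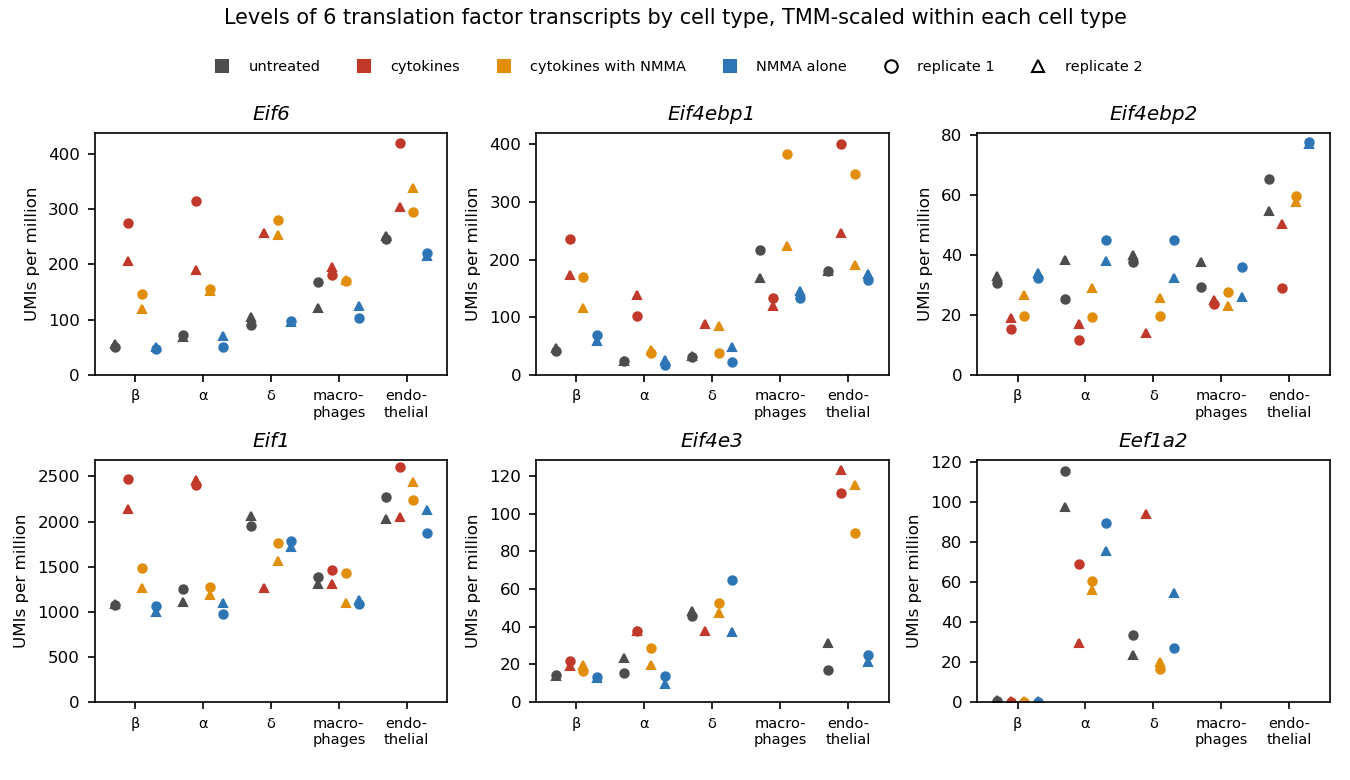
Levels of 6 genes (y axis, TMM-scaled UMIs per 1000000) in each cell type (x axis), with a point for each library, colour for the condition and marker shape for the replicate. *Eif4ebp1* rose with cytokines in β-cells (41.6 and 46.7 to 235 and 174) and α-cells (24.0 and 24.4 to 102 and 138) but was at 216 and 168 and at 133 and 119 in macrophages, and *Eif4e3* rose in endothelial cells (16.8 and 31.5 to 111 and 123).

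With cytokines against cytokines with NMMA, 19 of the 60 α-cell genes were higher and 0 lower by edgeR (30 and 1 with the block, 13 and 0 with DESeq2), where 6.51% of all genes were higher and 4.97% lower, and 11.1% and 8.85% with the block. DESeq2 called 531 genes in all, both directions together. On total UMIs the split was 9 higher and 6 lower (2.62% and 15.8% of all genes), and without hormone genes 11 and 5 (3.3% and 12.7%). The count was 9 without either library of cytokines with NMMA and 12 without cytokines replicate 1. *Eif4ebp1* was at 38.3 and 42.4 with NMMA (difference 1.59 ± 0.23, adjusted p = 3.55e-04), *Eef1a1* at 2405 and 1958 (1.29 ± 0.21, adjusted p = 6.57e-04), *Eef1b2* at 612 and 666 (1.12 ± 0.19, adjusted p = 0.00101) and *Eif5* at 217 and 247 (1.11 ± 0.19, adjusted p = 0.00117). With NMMA the last 3 were within 0.22 of untreated on the log2 scale, and *Eif4ebp1* was 0.74 ± 0.25 above it (adjusted p = 0.0889). *Eif6* was at 155 and 152, and was the only gene called with cytokines and NMMA against untreated (1.12 ± 0.24, adjusted p = 0.00366), where 6.08% of all genes were higher and 2.27% lower. There 0 genes were called without untreated replicate 2 and 2 without either cytokine library, and the block called 3 higher and 1 lower, where it called 9.39% and 4.69% of all genes.

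In δ-cells 2 of 61 genes rose and 0 fell with cytokines by edgeR (9 at an unadjusted p below 0.05, 3 and 1 with the block, 1 in all with DESeq2), where 4.04% of all genes rose and 1.79% fell, and 5.45% and 3.06% with the block. Among all 9621 genes tested 1853 were at an unadjusted p below 0.05, and DESeq2 called 232 genes in all. *Eif6* was at 90.9 and 105 untreated, 258 in the only cytokine library, 281 and 254 with cytokines and NMMA, and 97.2 and 95.7 with NMMA alone (1.40 ± 0.27 with cytokines, adjusted p = 0.00222). It was the gene most plainly raised, and the libraries with and without NMMA overlap. *Eef1a2* was at 33.6 and 23.4 untreated and 93.7 with cytokines (1.67 ± 0.48, adjusted p = 0.0407), from 34, 14 and 20 UMIs, a call lost without any library of untreated or of cytokines with NMMA. It was the only gene called between cytokines and cytokines with NMMA (16.3 and 20.2, difference 2.36 ± 0.50, adjusted p = 0.00989), where 1.53% of all genes were higher and 1.04% lower, and it was not called without replicate 1 of cytokines with NMMA. With 1 cytokine library the spread of that group is taken from the others. In that library α-cell markers summed to 39272 UMIs per 1000000 and δ-cell markers to 29071. α-cell markers were at 9865 and 37940 in untreated δ-cells, and at 5889 and 15682 with cytokines and NMMA. *Eef1a2* had higher levels in untreated α-cells than in untreated δ-cells. The part of α-cell RNA in its δ-cell values was not tested.

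With cytokines and NMMA against untreated, a comparison of 2 libraries with 2, 3 δ-cell genes were higher and 1 lower, where 6.08% and 2.82% of all genes were. They were *Eif6* (1.45 ± 0.21, adjusted p = 4.57e-05), *Eef1akmt4* (4.94 and 6.69 to 21.8 and 17.5, 1.78 ± 0.54, adjusted p = 0.0411), *Eif5a* (347 and 326 to 616 and 478, 0.70 ± 0.22, adjusted p = 0.0478) and the lower *Eif4b* (145 and 120.4 to 89.4 and 72.7, -0.72 ± 0.22, adjusted p = 0.0459). The 94 δ-cells with cytokines and NMMA lay in a cluster that held 1 untreated δ-cell, and the other 85 and 44 untreated ones lay in clusters with none of them. The block called 6 higher and 1 lower, where it called 9.64% and 6.4% of all genes. The count was 1 without either untreated library and 2 without replicate 2 of cytokines with NMMA.

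Macrophages and endothelial cells gave few calls. In macrophages 1 of 50 genes rose and 0 fell with cytokines (4 at an unadjusted p below 0.05, 2 higher with the block, 0 with DESeq2), where 3.74% of all genes rose and 0.795% fell, and 6.05% and 2.83% with the block. The unadjusted p was below 0.05 for 782 of all 5156 genes tested, and DESeq2 called 150 genes in all. Of the cytokine macrophages 45, and of those with cytokines and NMMA 59, lay in a cluster that held 2 untreated ones. The gene that rose with cytokines was the autosomal eIF1A gene *Eif1a* (1.36 ± 0.31, adjusted p = 0.0205). It was at 40.03 and 49.99 untreated, 124 and 110.4 with cytokines, 69.4 and 94.2 with cytokines and NMMA, and 66.7 and 40.5 with NMMA alone. Its call was lost without either untreated library and without cytokines replicate 1. Between cytokines and cytokines with NMMA edgeR and DESeq2 called 0 of the 50 genes, where edgeR called 0% of all genes higher and 0.116% lower. At an unadjusted p below 0.05 were 8 of the 50 genes and 334 of all 5156 tested, and DESeq2 called 5 genes in all. The block called 1 of the 50 lower, where it called 0.155% of all genes higher and 0.853% lower. That gene was *Eif4ebp1*, at 133 and 119 with cytokines and 383 and 223 with cytokines and NMMA (-1.25 ± 0.29, adjusted p = 0.133, and 0.00995 with the block), which was also called without replicate 2 of cytokines with NMMA.

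With cytokines and NMMA against untreated, 0 macrophage genes were higher and 2 were lower, where 5.04% and 1.36% of all genes were. They were both of elongation, *Eef1b2* (499 and 361 to 189 and 256, -0.94 ± 0.26, adjusted p = 0.0391) and *Eef2* (360.3 and 346 to 186 and 204, -0.85 ± 0.23, adjusted p = 0.0391). The block gave 7 lower (4.25% of all genes, with 7.91% higher) and DESeq2 0, where DESeq2 called 194 genes in all. At an unadjusted p below 0.05 were 15 of the 50 genes and 912 of all 5156 tested. Both edgeR calls were lost without untreated replicate 1 and without either library of cytokines with NMMA. Insulin UMIs made up 1.68 and 3.98% of untreated macrophage UMIs, 0.190 and 0.618% with cytokines and 0.354 and 0.352% with cytokines and NMMA, and their part in these values was not tested.

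In endothelial cells the gene called was *Eif4e3* (chr6:99625135-99666771, minus strand), a cap-binding protein of a class apart from eIF4E. It was at 16.8 and 31.5 untreated (9 and 23 UMIs), 111 and 123 with cytokines (23 and 44 UMIs), 89.8 and 115 with cytokines and NMMA (18 and 52 UMIs), and 24.8 and 21 with NMMA alone. The cytokine libraries with and without NMMA lie above all others, with changes against untreated of 2.23 ± 0.34 (adjusted p = 3.21e-04) and 2.06 ± 0.34 (adjusted p = 6.83e-04). It was 1 of 56 genes in both comparisons, with 0 lower, where 4.65% of all genes rose and 1.73% fell with cytokines, and 5.01% and 1.61% did with cytokines and NMMA. Counting by edgeR, DESeq2 and the block between cytokines and cytokines with NMMA gave 0 of the 56 genes (2 at an unadjusted p below 0.05), where edgeR called 0% of all genes and the block 0.0533% higher and 0.147% lower. There 364 of all 7503 genes tested were at an unadjusted p below 0.05, and DESeq2 called 3 genes in all. In the annotation *Eif4e3* shares 3777 bases with the gene model *Gm44104*, and reads there could belong to either. The conditions lay in different clusters of the class, with 97 untreated and 1 cytokine cell in one, and 37 cytokine cells, 47 with cytokines and NMMA and no untreated cell in the other. Summed over the 7 mesenchymal markers, of which 4 to 7 were detected in a library, the endothelial class held 1476 and 624 UMIs per 1000000 untreated, 476 and 331 with cytokines, 924 and 446 with cytokines and NMMA, and 975 and 924 with NMMA alone, *Rgs5* and *Pdgfrb* of pericytes among them. The 10 macrophage markers summed to 1430.4 in replicate 1 of cytokines with NMMA, where all were detected, and to 1.9 to 15.9 in the other libraries. The part of these clusters and markers in the values was not tested.

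Whether a gene answered cytokines differently in another cell type than in β-cells was tested as an interaction, with the library as a block. α-cells differed for 2 of 63 genes, 1 with the larger and 1 with the smaller response, where 2.26% and 2.34% of all genes were. *Eef2* responded more in α-cells (difference 0.68 ± 0.18, adjusted p = 0.0147) and *Eef1akmt4* less (-1.90 ± 0.56, adjusted p = 0.0323). On total UMIs the split became 0 larger and 10 smaller responses, and the share of all genes was not counted on that scale. There the median change of all genes with cytokines was -0.49 in α-cells and -0.22 in β-cells, so the 10 cannot be read as particular to these genes. No gene was called without either untreated library or without cytokines replicate 1, and 4 were without either library of NMMA alone.

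δ-cells had a larger response for 0 and a smaller one for 4 of 64 genes, where 1.51% and 1.76% of all genes did. The median difference was -0.39 over the 64 genes and -0.33 over all genes, and on total UMIs, where it was 0.073 over all genes, 1 smaller response was called. The 4 were *Eif1* (difference -1.67 ± 0.31, adjusted p = 1.28e-05), with levels of 1954 and 2058 untreated and 1265 in the cytokine library of δ-cells, and the eIF3 genes *Eif3g* (-1.37 ± 0.40, adjusted p = 0.0259), *Eif3e* (-1.27 ± 0.35, adjusted p = 0.0159) and *Eif3c* (-1.12 ± 0.32, adjusted p = 0.0187). These are start codon and eIF3 genes that rose in β-cells. The δ-cell side rests on 12 cells, in which α-cell markers summed above δ-cell markers. The count was 2 without untreated replicate 1 and 1 without untreated replicate 2.

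Macrophages had 1 larger and 7 smaller responses of 64, where 1.31% and 3.07% of all genes did. There are 6 smaller ones without *Eef1akmt4*, which had 4 and 6 UMIs untreated and 2 and 2 with cytokines and was too sparse to be tested in macrophages alone. *Eif4ebp1* had the smallest adjusted p (difference -2.57 ± 0.32, adjusted p = 3.81e-13), at 216 and 168 untreated and 133 and 119 with cytokines. *Eif6* (-1.54 ± 0.31, adjusted p = 8.29e-05), *Eif1* (-0.83 ± 0.23, adjusted p = 0.0152), *Eef1a1* (-0.74 ± 0.23, adjusted p = 0.0288) and *Eif3c* (-0.96 ± 0.30, adjusted p = 0.0330) followed by adjusted p. Macrophage levels of *Eif6* were 168 and 122 untreated and 180.2 and 196 with cytokines, and those of *Eif1* were 1390.5 and 1309 and then 1465 and 1308, where the conditions overlap. The count was 3 without untreated replicate 2 and 1 without cytokines replicate 1.

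Endothelial cells had 1 larger response, that of *Eif4e3* (1.83 ± 0.40, adjusted p = 2.26e-04), and 10 smaller ones of 63, where 2.55% and 3.82% of all genes did. *Eif6* (-1.52 ± 0.27, adjusted p = 1.54e-06), at 247 and 252 untreated and 420.2 and 305 with cytokines, and *Eif4ebp1* (-1.27 ± 0.27, adjusted p = 2.01e-04) led the smaller ones by adjusted p. *Eif1* (-0.86 ± 0.23, adjusted p = 0.00489) was also among them. It was at 2271 and 2026 untreated and 2604 and 2048 with cytokines, where the conditions overlap. The 10 include *Eef1akmt4*, which had 8 and 10 UMIs untreated and 0 and 2 with cytokines, was too sparse to be tested in endothelial cells alone and entered the joint fit through its β-cell counts, and there are 9 without it. The count was 3 without untreated replicate 1 and 5 without untreated replicate 2 or cytokines replicate 1.

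**Figure D5:**
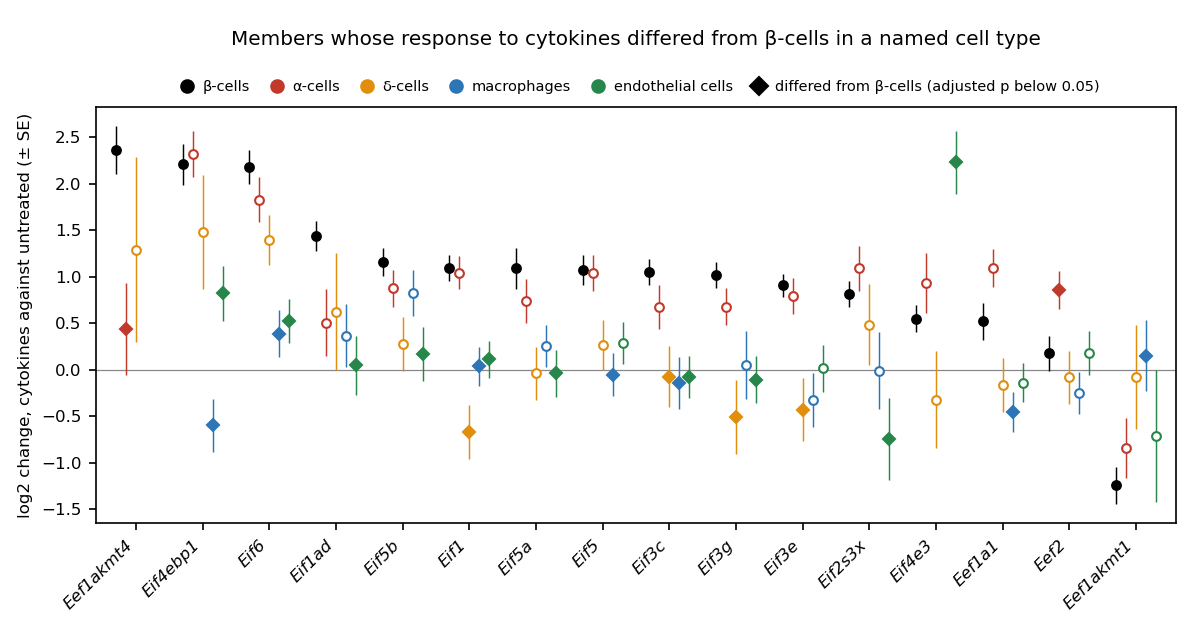
Log2 change with cytokines against untreated and its SE (y axis) for the genes whose response differed from that of β-cells in at least 1 other cell type (x axis, ordered by the β-cell change), with a colour for each cell type and a diamond where the difference passed the test. *Eif6* and *Eif4ebp1* changed by 2.18 and 2.21 in β-cells and by 0.53 and 0.82 in endothelial cells, and *Eif4e3* by 0.55 and 2.23. *Eef1akmt4* is not drawn for macrophages and endothelial cells, where it was too sparse to be tested alone.

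Beside the factors themselves, 47 other genes of the pathway were counted in 7 lists. With cytokines against untreated in β-cells, 3 of 6 genes of the eIF2α kinases and phosphatase rose, 3 of 9 of mTOR and MNK signalling rose and 1 fell, 2 of 4 poly(A)-binding protein genes rose, 2 of 7 tested hypusine and diphthamide enzymes rose, 3 of 8 of release and recycling rose and 1 fell, 2 of 10 mitochondrial factors rose and 1 fell, and 0 of 2 for selenocysteine were called. Over the 7 lists 15 of 46 genes tested rose and 3 fell, where 23.7% of all genes rose and 22.4% fell, and single lists are too short to be read against those shares. *Ppp1r15a*, which directs the removal of phosphate from eIF2α, went from a mean level of 19.1 to 82.4 (2.11 ± 0.14, adjusted p = 1.35e-05), and *Eif2ak3*, the kinase of the unfolded protein response that adds it, from 25.3 to 69.4 (1.46 ± 0.16, adjusted p = 1.35e-04). *Pabpc1*, the main cytoplasmic poly(A)-binding protein, went from 235 to 884 (1.91 ± 0.20, adjusted p = 1.06e-04) and was at 777 with NMMA. *Pdcd4*, an inhibitor of eIF4A, fell from 145 to 58.6 (-1.31 ± 0.33, adjusted p = 0.0145), and *Mknk1*, a kinase of eIF4E, rose from 13.6 to 35.9 (1.40 ± 0.15, adjusted p = 1.22e-04).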

How the data were processed

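The authors deposited raw UMI counts per gene and barcode for 8 libraries, made with Cell Ranger (3.0.0 in the headers of replicate 1, 6.0.0 in those of replicate 2) on mm10, as named in the submitters' processing notes and the file headers. The kit is v2 in the labels and v3 in the study's methods. Gene lists differ (31053 and 32285 genes), and the 30406 IDs in both were used. The genes, lists and tests were chosen with earlier results of these data known.

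Barcodes with at least 200 genes, at most 5500 (replicate 1) or 6500 (replicate 2) genes and at most 10% mitochondrial UMIs were kept. Counts were clustered with scanpy 1.11.5 and leidenalg 0.10.2 (2000 variable genes, 30 components, 20 neighbours, resolution 1.0), hormone-led non-β clusters were clustered again, and clusters were named from markers. Called doublets (99 cells, 0.91%) stayed in. UMIs of a class were summed per library where it had at least 10 cells and tested with edgeR 4.0.16 in R 4.3.3 (filterByExpr, TMM, robust quasi-likelihood F test, Benjamini-Hochberg over all genes tested, threshold 0.05), with the 4 conditions of a class in 1 fit and no block. The SE is the change over the square root of F. Interactions used the sums of a pair of classes with the library as a block. The procedure was tested on simulated data in which each library was drawn independently. That test therefore does not cover the correlation between libraries of the same replicate. Gene positions are of GENCODE on GRCm38, and promoter windows of RefSeq.

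Genes given with full values were, in each group, up to 3 called in β-cells with the largest change and the same direction in both replicates, then paralog sets, the genes called in each other class or comparison (or up to 5 with the smallest adjusted p), up to 5 per interaction, and up to 2 per list of other pathway genes. Same-numbered libraries come from the same pool of mice, according to the study's methods, and their deviations from the condition means correlated (β-cells 0.656 to 0.75, α-cells 0.277 to 0.436, δ-cells 0.312 to 0.322, macrophages 0.357 to 0.474, endothelial cells 0.225 to 0.398), so a fit with the replicate as a block was also made. Other alternatives were DESeq2 1.42.0, total UMIs with and without hormone genes, no low-count filter, no minimum of cells, clustering without translation genes, removal of doublets, at most 5% mitochondrial UMIs, β-cells thinned to 10000 UMIs, and leaving out each library.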

Additional observations from a re-analysis of the deposited data

Results flagged for a closer look

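These results are listed because the response of a gene to cytokines (log2 change against untreated) differed between another cell type and β-cells by the interaction test. They are values only, and the cause was not tested. In α-cells minus β-cells the differences were 0.68 for *Eef2* and -1.90 for *Eef1akmt4*. In δ-cells minus β-cells they were -1.12 for *Eif3c*, -1.37 for *Eif3g*, -1.67 for *Eif1* and -1.27 for *Eif3e*.

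In macrophages minus β-cells the differences were -1.54 for *Eif6*, -0.96 for *Eif3c*, -2.57 for *Eif4ebp1*, -0.74 for *Eef1a1*, -0.83 for *Eif1*, -0.90 for *Eif5* (adjusted p = 0.0400), 1.56 for *Eef1akmt1* (adjusted p = 0.0340) and -3.10 for *Eef1akmt4* (adjusted p = 0.0474).

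In endothelial cells minus β-cells they were -0.87 for *Eif5b* (adjusted p = 0.0328), -1.52 for *Eif6*, 1.83 for *Eif4e3*, -1.0 for *Eif3c* (adjusted p = 0.00626), -1.27 for *Eif4ebp1*, -0.97 for *Eif3g* (adjusted p = 0.0205), -0.95 for *Eif5a* (adjusted p = 0.00747), -0.86 for *Eif1*, -4.24 for *Eef1akmt4*, -1.25 for *Eif1ad* (adjusted p = 0.00703) and -1.43 for *Eif2s3x* (adjusted p = 0.0191). Every p here is from edgeR's quasi-likelihood test, adjusted over all genes tested. The genes with an adjusted p in the last 2 paragraphs were named after their values were seen. *Eef1akmt4* was too sparse to be tested in macrophages or endothelial cells alone and entered these fits through its β-cell counts, so its differences there are uncertain.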

How the results depend on the processing

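The counts of called genes are given for cytokines against untreated, cytokines against cytokines with NMMA, and cytokines with NMMA against untreated in that order, called A, B and C here. Over all settings 197 counts stayed within 1.5 times the reported one and 83 did not, and of the values of named genes 742 kept direction and call, 53 lost the call, 20 gained it and 16 turned direction. A count here takes higher and lower genes together, so a shift between them does not show in it. Such shifts occurred on total UMIs in B in β- and α-cells, with the splits given above. Thinning β-cells and the stricter mitochondrial limit moved no count. With the replicate block β-cells had 41 in B and 28 in C (22 and 8 reported) and 1 with NMMA alone, α-cells 31 in B and 4 in C (19 and 1), δ-cells 4, 2 and 7 (2, 1 and 4), macrophages 2, 1 and 7 (1, 0 and 2), and endothelial cells 2 in A (1). Total UMIs gave α-cells 16 in A (27 reported) and 2 in C, and δ-cells 2 in C. They gave 10, 1 and 17 differences of response in α-, δ- and endothelial cells (2, 4 and 11). The share of all genes was not counted for these differences on total UMIs. Without hormone genes in the totals β-cells had 25 in A (38), α-cells 16 and 2 in A and C, and δ-cells 1 and 2. DESeq2 gave δ-cells 1, 0 and 1, where it called 232, 77 and 313 genes in all. It gave macrophages 0 in A and 0 in C, where it called 150 and 194 genes in all. With no filter on low counts α-cells had 3 in C, δ-cells 4 in A, and macrophages 1 and 1 in B and C. With no minimum of cells δ-cells had 1, 0 and 1. Clustering without translation genes gave α-cells 2 in C and δ-cells 1 in A, and removal of doublets gave macrophages 0 in C.

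In the same order, leaving out each library gave β-cells 27 to 37, 4 to 22 and 3 to 10 called genes and 0 to 0 with NMMA alone, α-cells 14 to 28, 9 to 22 and 0 to 2, δ-cells 1 to 3, 0 to 1 and 1 to 4, macrophages 0 to 1, 0 to 1 and 0 to 2, and endothelial cells 1 to 1, 0 to 0 and 1 to 1. Differences of response ranged over 0 to 4 in α-cells, 1 to 6 in δ-cells, 1 to 11 in macrophages and 3 to 11 in endothelial cells. Where this leaves 1 library in a group, its spread is taken from the other groups. The share of all genes called was not counted in the fits without a library, so these ranges cannot be read as particular to these genes.

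Changes that turned direction were all of genes not called with cytokines in β-cells. On total UMIs *Eif1b* was at -0.055, *Eif4e* at -0.083, *Eif4g3* at -0.10 and *Eif5a2* at -0.13, and without hormone genes at -0.19, -0.22, -0.24 and -0.27. *Eif4g3* was at -0.074 in thinned cells and -0.0016 without cytokines replicate 1. *Eif5a2* was at -0.036 with the stricter mitochondrial limit and -0.041 without untreated replicate 1. Without cytokines replicate 1 *Eif4e* was at -0.052, *Eef1a2* at 0.12 and *Eif4ebp3* at 0.40, and *Eif4ebp3* was at 9.31 without untreated replicate 2. Over the fits without a library the other ends of the range were -3.05 for *Eef1a2*, 0.31 for *Eif4e*, -10 for *Eif4ebp3* and 0.24 for *Eif4g3* without cytokines replicate 2, and 0.22 for *Eif5a2* without untreated replicate 2. The cause was not tested.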
